A study of Mus musculus with 6 samples.

Results

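Cytochrome P450 genes were followed in medullary thymic epithelial cells (mTECs) of mice with and without Mbd1. Members were the genes of the authors' expression matrix whose array symbol is Cyp, 1 or 2 digits, a letter and a number. The rule used names only and found 71 of the 21538 genes with a symbol, on 103 probes, each gene being read on the probe of highest mean over the 6 columns. The mice were 30 days old, labelled MBD1 WT or MBD1 KO, with 3 arrays per genotype. The targeted allele, strain, sex and whether a sample was 1 animal or a pool are not given in the sources used here. mTECs were sorted from thymus as living cells positive for EpCAM and MHC class II and negative for CD45, CD11c and Ly51, and all groups share that gate and an amplification of the RNA. Replicates were called biological in the series' design text, which gives 4 per genotype and 1 of each removed by the authors.

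P450 enzymes are heme proteins that use electrons from a reductase to insert oxygen into lipids, hormones, drugs and toxins. Most are made in liver, adrenal, gonad, kidney or airway, and mTECs transcribe many such tissue-restricted genes at low level, partly under the autoimmune regulator Aire, so that developing T cells meet the proteins. Several P450s are known autoantigens of the human disease caused by loss of AIRE: the steroid enzymes CYP11A1, CYP17A1 and CYP21A2 in adrenal and gonadal failure, and CYP1A2 and CYP2A6 in hepatitis. MBD1 binds methylated CpG sites in DNA and, with its partner ATF7ip, has been linked to Aire.

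Because MBD1 reads CpG sites, 4 promoters are shown with each CpG in capitals. They belong to the detected members with the smallest p in either direction (Cyp3a13 and Cyp2c70), to the hepatitis autoantigen Cyp1a2, and to Cyp46a1, the member richest in CpG. Each runs from 250 bases before to 50 after the gene's start, 5′ to 3′ on the gene's strand, from RefSeq on GRCm38.p6. Cyp3a13 lies at chr5:137921570-137921869 on the minus strand, Cyp2c70 at chr19:40187237-40187536 on the minus strand, Cyp1a2 at chr9:57683606-57683905 on the minus strand and Cyp46a1 at chr12:108334066-108334365 on the plus strand.
Cyp3a13: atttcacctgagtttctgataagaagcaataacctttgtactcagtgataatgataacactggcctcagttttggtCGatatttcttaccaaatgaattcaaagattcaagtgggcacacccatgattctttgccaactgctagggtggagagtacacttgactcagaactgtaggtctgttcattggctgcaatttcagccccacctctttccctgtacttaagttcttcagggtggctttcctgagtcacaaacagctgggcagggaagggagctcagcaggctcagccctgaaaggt
Cyp2c70: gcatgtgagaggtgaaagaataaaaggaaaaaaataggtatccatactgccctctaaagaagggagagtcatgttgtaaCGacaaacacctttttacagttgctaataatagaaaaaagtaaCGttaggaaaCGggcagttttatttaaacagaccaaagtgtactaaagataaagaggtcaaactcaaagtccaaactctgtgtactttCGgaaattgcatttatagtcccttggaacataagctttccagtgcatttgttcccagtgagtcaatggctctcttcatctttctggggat
Cyp1a2: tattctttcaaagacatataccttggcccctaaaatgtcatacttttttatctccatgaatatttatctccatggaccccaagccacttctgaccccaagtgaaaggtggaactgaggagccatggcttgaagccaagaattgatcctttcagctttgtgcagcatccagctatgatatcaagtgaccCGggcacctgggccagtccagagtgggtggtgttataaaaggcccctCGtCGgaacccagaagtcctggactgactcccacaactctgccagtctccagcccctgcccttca
Cyp46a1: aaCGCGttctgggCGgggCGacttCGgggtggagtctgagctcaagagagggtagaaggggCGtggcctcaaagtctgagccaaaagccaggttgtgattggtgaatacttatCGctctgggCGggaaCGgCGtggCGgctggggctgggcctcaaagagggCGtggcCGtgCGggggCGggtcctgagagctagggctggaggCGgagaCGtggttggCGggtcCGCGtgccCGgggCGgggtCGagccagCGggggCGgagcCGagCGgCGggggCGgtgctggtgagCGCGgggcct
The windows held 1 CpG in Cyp3a13, 4 in Cyp2c70, 3 in Cyp1a2 and 31 in Cyp46a1. A promoter was matched by gene ID for 54 of the 71 members, and the first entry of a gene was used. Their median was 3 CpG per window against 7 over the 27025 genes of the table, and 85.2% of members had fewer than 10 against 56.1% of all genes. The letters TATAAA, searched on both strands like the next motif, stood in 24 of the 54 windows (44.4%) against 14.2% of all. The core GCGTG, bound by the aryl hydrocarbon receptor, stood in 12 (22.2%) against 32.5%. A match is a run of letters, not a bound site. Methylation was not measured.

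The labels were checked on the targeted gene before the members were read. On the log2 scale of the matrix, Mbd1 read 8.83, 8.60 and 9.00 in columns WT 1 to WT 3 and 5.64, 5.61 and 5.60 in KO 1 to KO 3, the latter near background, a difference of -3.19 (SE 0.19, limma adjusted p = 3.9e-05). Of the scanner files, 4 of 6 went against their titles: the processed intensity of the same probe was 20.9, 305 and 15.6 on the arrays titled WT 1 to 3 and 356, 17.2 and 682 on those titled KO 1 to 3. By the rank order of their probes, 5 matrix columns were the same as an array, of which 0 bore that column's own title and 4 bore a title of the opposite genotype. Column KO 1 matched no array, and the array titled KO 2 matched no column. The arrays, used below to call detection, and the columns are thus known to share only 5 libraries. Every direction below is therefore that of the libraries in the columns named KO or WT, and the titles turned it for 40 of 65 kept members with a value on processed intensity and for 44 of 64 after normexp and quantile normalization. The arrays titled WT were all on 1 slide and those titled KO all on the other, so under the titles slide and genotype cannot be told apart. Through those 5 matches, columns WT 1, KO 2 and KO 3 came from 1 slide and WT 2 and WT 3 from the other. The slide of KO 1 is unknown, so WT 1 is the only wild type column known to share a slide with a knockout column. The difference within that slide (mean of KO 2 and KO 3 minus WT 1, leaving out KO 1) rests on WT 1 as its single wild type value, and it had the other sign than the full comparison in 12 of 66 kept members.

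Markers of mTECs were detected on all 6 arrays for all 9 measured (Tacstd1, which encodes EpCAM, Krt5, Krt14, Aire, H2-Aa, Cd74, Cd80, Cd40 and Tnfrsf11a), and 0 of them passed the test. Thymocyte markers read higher in the knockout columns: 5 of 9 passed at an unadjusted p of 0.05 (against 2.03% of all genes), and their summed linear level was 2550 to 3168 in WT and 4342 to 5733 in KO columns. Of dendritic cell and macrophage markers 3 of 7 were higher by that rule (summed level 3270 to 3671 in WT, 3931 to 5443 in KO). In that list Mrc1 (-0.65), Xcr1 (-0.28) and Csf1r (-0.16) lay below 0. Of B cell markers 1 of 7 was higher by the same rule, the mu chain entry Igh-6. The summed level of all 7 B cell markers was 4034 to 5142 in WT and 5407 to 14393 in KO columns. Of cortical thymic epithelial markers 1 of 5 was higher by that rule, Prss16, while for Ly75 (-0.27) every KO column lay below every WT column. The summed level of all 5, of which Ccl25 was the brightest, was 24179 to 31320 in WT and 32800 to 42861 in KO columns. Of mesenchymal and endothelial markers 0 of 6 were higher by that rule (summed level 3643 to 4823 in WT, 3828 to 5360 in KO). None of these markers passed after adjustment, every one was detected on at least 5 of the 6 arrays, and their part in the results below was not tested.

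Transcripts of 66 of the 71 P450 genes were detected, on a minimum of 3 of the 6 arrays and whatever the arrays' titles, and 62 of the 66 lay above the background level in all 6 matrix columns. That level, the 95th percentile of 5198 probes detected on no array, was 5.46 to 5.62. Cyp2a5, the counterpart of human CYP2A6, read 13.87, 13.82 and 13.67 in WT 1 to 3 and 13.84, 13.61 and 13.88 in KO 1 to 3, far above it. Cyp2f2, the naphthalene-oxidising enzyme of airway club cells, read 12.65 to 13.12 in the 6 columns, and Cyp2g1, an enzyme of the olfactory mucosa, 11.31 to 11.86. The 5 genes not kept were Cyp2a12, Cyp2c54, Cyp2d13, Cyp2e1 and Cyp7a1. Cyp2e1, the ethanol-inducible enzyme of liver, read 5.12 to 5.57, around background in every column. A gene could be kept through 1 group alone, so counts over kept genes are not counts over the whole family. In bulk RNA of sorted cells, fewer cells carrying a transcript and less of it per cell cannot be told apart.

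**Figure D1:**
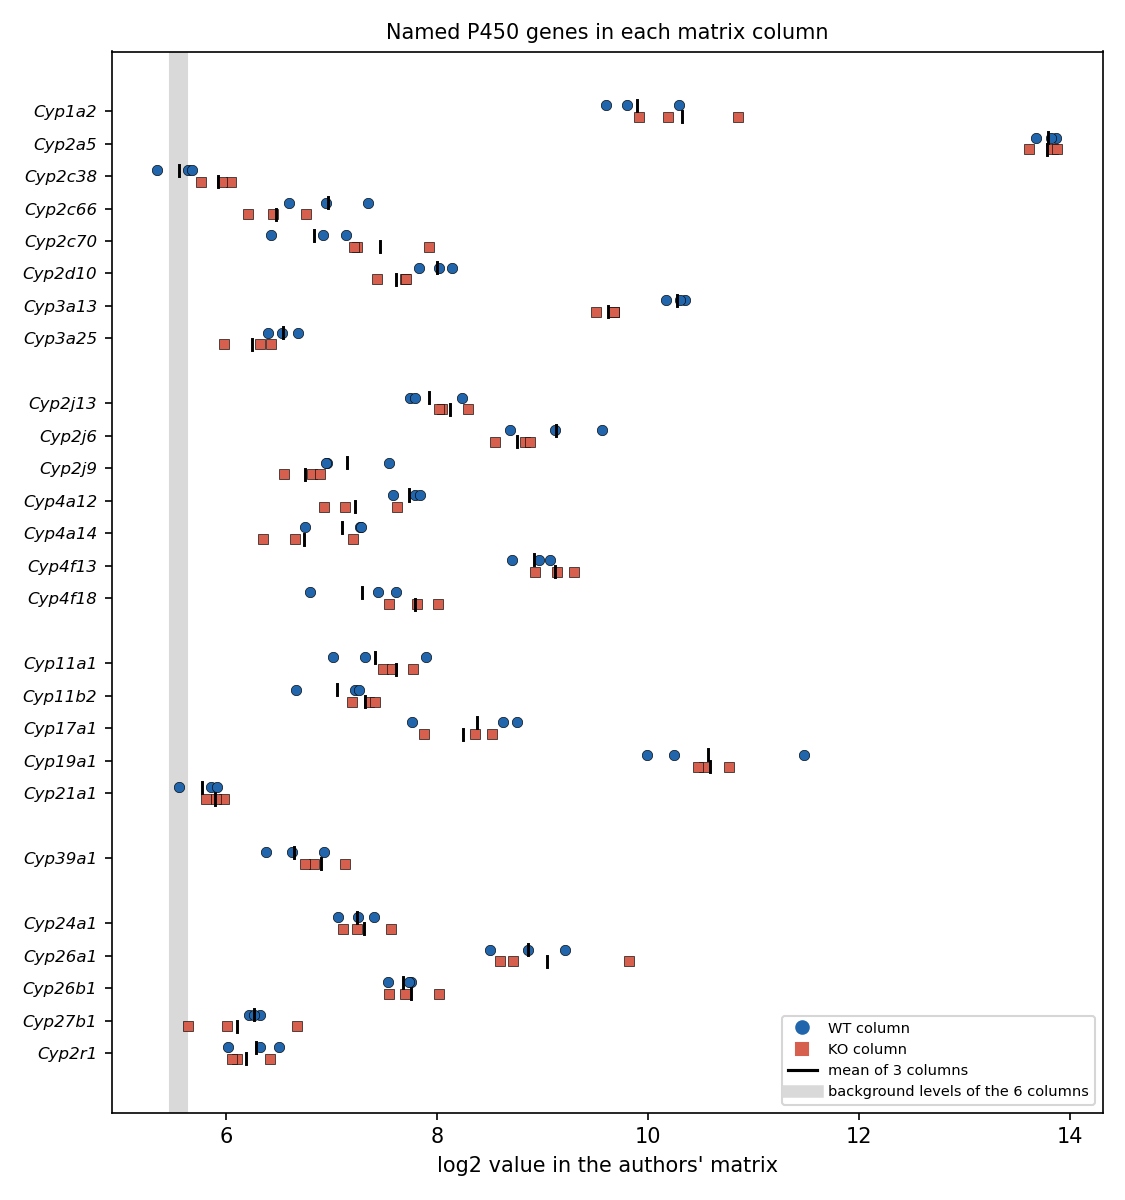
Log2 values of the 26 named P450 genes (vertical axis, parted by role) in the 3 WT columns (circles) and 3 KO columns (squares) of the authors' matrix, with the mean of each group as a bar and the background levels (5.46 to 5.62) in grey. Cyp3a13, Cyp2d10, Cyp2j9, Cyp2c38 and Cyp2c70 are the genes shown here whose groups do not overlap.

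No P450 gene passed the test between the knockout and wild type columns. Of the 66 kept members, 0 had an adjusted p under 0.05 (limma, Benjamini-Hochberg over 18636 genes; smallest 0.561), against 0.0912% of all genes (17 of 18636; 0.0805% higher and 0.0107% lower). The number over all genes was 9 without column WT 2, 11 without WT 3 and 32 without KO 3, while the number of P450 genes was 0 whichever column was left out. At an unadjusted p of 0.05, 3 members stood out, 1 higher (2.03% of all genes) and 2 lower (2.04%), against 4.08% of all genes in either direction. There were 5 without KO 3 (3.62% of all genes in that setting), 2 without WT 3 (3.28%), 7 with the slide as a block (6.16%) and 5 without the filter on dim probes (3.99%). The groups did not overlap in 7 of 66 members, 2 higher (3.93% of all genes) and 5 lower (4.29%), against 8.22% of all genes in either direction, a share near the background. With 1 column left out, and so fewer values to overlap, that count was 11 (16.7%, without WT 3, against 15.2% of all genes) to 17 (25.8%, without KO 2, against 23.3%). The share of members was furthest from that of all genes without WT 2 and without KO 3. In each of these settings the count was 15 (22.7%, against 15.1% of all genes). The 66 differences had a median of -0.073 and ran from -0.66 to 0.63, with 29 above 0 (48.6% of all genes were), and the median over all kept genes was -0.0076. The family's median took the other sign within the shared slide (0.042) and under the scanner titles (0.20 on processed intensity, 46 of 65 members above 0; 0.040 after normexp and quantile normalization).

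The precision set a limit on what could be missed. The standard errors of the 66 differences ran from 0.18 to 0.34, and the 95% interval lay within a 2-fold change either way (log2 -1 to 1) for 61 members, as it did for 92.7% of all genes. The 5 whose interval reached further were Cyp3a13, Cyp2c66, Cyp2c70, Cyp4f18 and Cyp1a2. The matrix shows no background subtraction, so these intervals hold on its scale only. Among the 61 are Cyp21a1, Cyp2c38, Cyp2j5 and Cyp8b1, which lay at background in at least 1 column. Others lay little above it, such as Cyp2c65 (5.57 to 6.38 over the 6 columns) and Cyp27b1 (5.64 to 6.67). Folds of such dim genes are understated, so their intervals do not exclude a 2-fold change. The median SD within a group was 0.25 for the members and 0.26 for all genes.

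**Figure D2:**
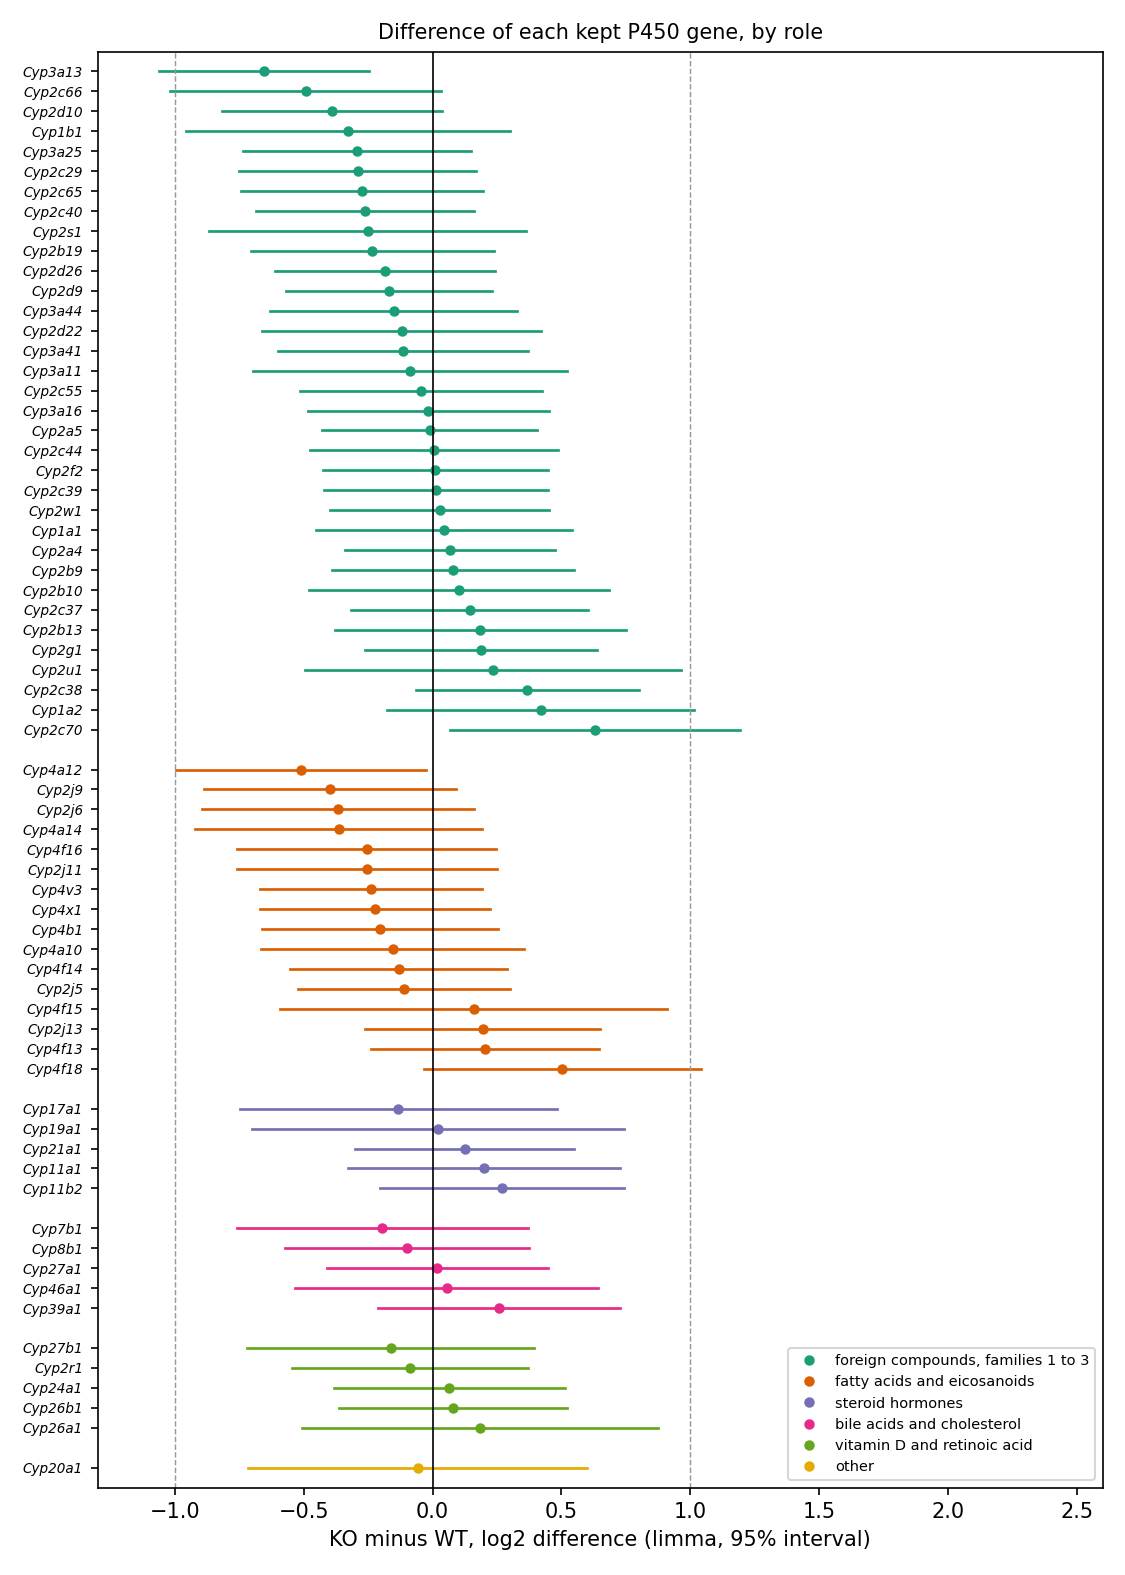
KO minus WT difference on the log2 scale (points) with its 95% limma interval (lines) for the 66 kept P450 genes, coloured and parted by role; dashed lines mark a 2-fold change. The intervals of Cyp3a13, Cyp4a12 and Cyp2c70 leave out 0 and all others span it, with 0 P450 genes passing after adjustment.

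Roles were assigned by symbol. Among the genes of families 1 to 3, many of which oxidise foreign compounds (without Cyp2j and Cyp2r1, counted below), 34 of 38 members were kept. Of these 15 were above and 19 below 0, with a median of -0.031. Cyp2c70, Cyp2c38 and Cyp2u1, described below by bile acid or fatty acid roles, are counted here and not in those groups. Cyp3a13, a drug- and steroid-oxidising enzyme of the CYP3A subfamily, was the member of smallest p. It read 10.17, 10.35 and 10.30 in WT 1 to 3 and 9.50, 9.68 and 9.67 in KO 1 to 3. Every KO column thus lay below every WT column, and the spread within each group was small (10.27 ± 0.09 and 9.62 ± 0.10, SD, n = 3). Its difference was -0.66 (SE 0.19, 95% interval -1.06 to -0.25, unadjusted p = 0.00446, limma adjusted p = 0.561), a linear ratio of 0.635, and the authors' deposited table lists an FDR of 0.454 for it, the smallest of the 103 member probes. Leaving out any column gave -0.71 to -0.60, and the shared slide -0.49; the arrays under their titles gave 0.18. The gene has 1 probe here.

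The other 5 measured Cyp3a genes were also below 0 without passing. Cyp3a25 read -0.29 (SE 0.20), while Cyp3a44 (-0.15), Cyp3a41 (-0.11), Cyp3a11 (-0.088) and Cyp3a16 (-0.017) were closer to 0. Cyp3a11, the main CYP3A enzyme of mouse liver, varied within both groups, at 8.42, 8.92 and 9.40 in WT and 8.77, 9.24 and 8.47 in KO columns. Close relatives such as Cyp3a41 and Cyp3a44 can share transcripts on a probe, so single genes of this subfamily are uncertain.

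Cyp2c70, which makes the muricholic acids of mouse bile, had the largest positive difference. It read 6.42, 6.92 and 7.14 in WT 1 to 3 and 7.24, 7.21 and 7.92 in KO 1 to 3. The groups did not overlap, though WT 3 lay just below KO 2, and KO 3 was the highest. The difference was 0.63 (SE 0.26, 95% interval 0.067 to 1.20, unadjusted p = 0.0314, limma adjusted p = 0.999). It was 0.40 without KO 3, and 1.14 within the shared slide, where it rests on WT 1, the lowest column. Under the titles it read 0.23.

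The Cyp2c genes of chromosome 19, grouped by name and chromosome only, went both ways, with 5 of 10 kept members, Cyp2c70 among them, above 0. Cyp2c66 read 7.34, 6.59 and 6.94 in WT and 6.20, 6.44 and 6.76 in KO columns, which overlapped (-0.49, SE 0.24, limma adjusted p = 0.999); it was -0.30 without WT 1 and -0.74 within the shared slide. Cyp2c38, an arachidonic acid epoxygenase, read 5.34, 5.64 and 5.68 in WT and 6.04, 5.76 and 5.96 in KO columns, no overlap but all near background. Its difference was 0.37 (SE 0.20), and the other probe of the gene, detected on 0 arrays, read -0.30. Cyp2c29 (-0.29), Cyp2c65 (-0.28), Cyp2c40 (-0.26), Cyp2c37 (0.14), Cyp2c39 (0.013), Cyp2c44 (0.0059) and Cyp2c55 (-0.045) are the other kept Cyp2c genes.

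Cyp1a2, the caffeine-oxidising liver enzyme and hepatitis autoantigen, read 9.80, 9.60 and 10.29 in WT and 10.19, 10.85 and 9.91 in KO columns. The groups overlapped, and KO 2 was the highest. The difference was 0.42 (SE 0.27, 95% interval -0.18 to 1.01, limma adjusted p = 0.999) and 0.55 on the gene's other probe. It was 0.15 without KO 2 and took the other sign under the titles (-0.18). Cyp1a1 (0.042) and Cyp1b1 (-0.33), the other members of family 1, did not pass either. Cyp1b1 was even in the WT columns (9.59, 9.43 and 9.60) and uneven in the KO columns (9.08, 9.92 and 8.64).

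Cyp2a5 differed by -0.011 (SE 0.19, 95% interval -0.43 to 0.41), so a 2-fold change lay outside its interval. Cyp2a4, a nearly identical steroid hydroxylase whose transcript the same probes may catch, differed by 0.068. All 4 kept Cyp2d genes, relatives of the human drug enzyme CYP2D6, were below 0 without passing. Cyp2d10 read 7.83, 8.14 and 8.02 in WT and 7.69, 7.42 and 7.70 in KO columns, without overlap (-0.39, SE 0.20, limma adjusted p = 0.999), and -0.15 on its other probe. Cyp2d9 was also without overlap, at -0.17, and Cyp2d26 read -0.19 and Cyp2d22 -0.12. Cyp2b10, the classical target of the constitutive androstane receptor, read 0.10 (SE 0.27).

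Of the 16 genes for fatty acids and eicosanoids (Cyp4 and Cyp2j), all kept, 4 were above and 12 below 0, with a median of -0.21. The median within the shared slide was -0.12. Cyp4a12, whose product makes the vasoconstrictor 20-HETE, read 7.79, 7.84 and 7.58 in WT and 7.62, 7.13 and 6.92 in KO columns. KO 1 lay among the WT columns, KO 2 and KO 3 below them. The difference was -0.51 (SE 0.22, 95% interval -0.998 to -0.024, unadjusted p = 0.0411, limma adjusted p = 0.999) and -0.31 on the gene's other probe, with 0.56 under the titles. The name covers close copies in the genome (Cyp4a12a in RefSeq), which the probe may not tell apart.

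Cyp4f18, which inactivates leukotriene B4 in mouse leukocytes, read 6.79, 7.61 and 7.44 in WT and 7.80, 7.54 and 8.01 in KO columns. Only KO 2 lay among the WT columns. The difference was 0.50 (SE 0.25, limma adjusted p = 0.999), 0.26 without WT 1 and 0.98 within the shared slide. Of the thymocyte markers above 5 of 9, and of the dendritic cell and macrophage markers 3 of 7, read higher in the KO columns, and their part in this gene's difference was not tested. Cyp4f13 (0.20), Cyp4f15 (0.16), Cyp4f14 (-0.13) and Cyp4f16 (-0.26), of the chromosome 17 cluster, did not pass. Cyp4f15 had the largest spread within groups of all kept members (SD 0.61), with 6.35 in KO 2 and 7.82 in KO 3.

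Cyp2j9, an arachidonic acid hydroxylase, read 7.54, 6.95 and 6.95 in WT and 6.81, 6.89 and 6.54 in KO columns, without overlap (-0.40, SE 0.22). Its difference was -0.20 without WT 1, -0.83 within the shared slide and 0.21 under the titles. Cyp2j6 read 8.69, 9.56 and 9.12 against 8.83, 8.88 and 8.54 (-0.37, SE 0.24). It was -0.15 without WT 2, -0.58 without WT 1, 0.025 within the shared slide and 0.48 under the titles. Cyp2j13 read 0.19, Cyp2j11 -0.25 and Cyp2j5 -0.11. Cyp4a14, a fatty acid hydroxylase induced through PPARα, read -0.36 (SE 0.25; -0.17 without KO 2), Cyp4a10 -0.16, Cyp4b1 -0.20 and Cyp4x1 -0.22. Cyp4v3 (-0.24) counted as without overlap, with WT columns of 9.65, 9.91 and 9.67 and KO columns of 9.29, 9.65 and 9.57, but WT 1 and KO 2 were equal at this precision.

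The 5 steroid hormone enzymes on the array were all kept, 4 above and 1 below 0, and in each the groups overlapped. Cyp11a1, the side-chain cleavage enzyme that starts steroid synthesis, read 7.01, 7.32 and 7.90 in WT and 7.77, 7.48 and 7.57 in KO columns (0.20, SE 0.24). It was 0.00027 without WT 1, 0.44 without WT 3 and 0.52 within the shared slide, and its other probe read -0.14. Cyp17a1, the 17α-hydroxylase, read 7.76, 8.63 and 8.75 against 8.52, 8.35 and 7.87 (-0.13, SE 0.28), with 0.35 within the shared slide and 0.79 under the titles. Cyp21a1, the 21-hydroxylase of the adrenal, was close to background, at 5.55, 5.85 and 5.91 against 5.98, 5.80 and 5.90 (0.13, SE 0.19). These 3 are counterparts of the adrenal and gonadal autoantigens. On this scale the 95% intervals were -0.33 to 0.73 for Cyp11a1 and -0.75 to 0.48 for Cyp17a1, and no limit can be set for Cyp21a1, whose values lie at the floor of the array.

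Cyp11b2, the aldosterone synthase, read 6.66, 7.22 and 7.26 in WT and 7.35, 7.41 and 7.19 in KO columns (0.27, SE 0.22), 0.077 without WT 1 and 0.63 within the shared slide. Cyp19a1, the aromatase that makes estrogens, read 11.48, 9.99 and 10.24 in WT and 10.53, 10.47 and 10.77 in KO columns. Column WT 1 alone stood far above the rest. Its difference of 0.021 (SE 0.33) became 0.47 without WT 1 and -0.86 within the shared slide, so no direction can be given for it.

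The 5 genes for vitamin D and retinoic acid were kept, with differences from -0.16 to 0.18. Cyp26a1, which degrades retinoic acid, read 8.50, 8.86 and 9.22 in WT and 8.59, 9.81 and 8.72 in KO columns (0.18, SE 0.32); without KO 2 it read -0.20, and within the shared slide 0.77. Its relative Cyp26b1 read 0.079 (SE 0.20). Cyp27b1, which makes active vitamin D, was even in WT (6.32, 6.22 and 6.26) and spread in KO columns (6.002, 6.67 and 5.64; -0.16, SE 0.25). Cyp24a1, which degrades vitamin D, read 0.065 (SE 0.21), and the 25-hydroxylase Cyp2r1 -0.089 (SE 0.21). In all 5 the groups overlapped.

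Of 6 bile acid and cholesterol genes 5 were kept, with a median of 0.018. Cyp39a1, an oxysterol hydroxylase, read 6.38, 6.93 and 6.62 in WT and 6.83, 7.13 and 6.75 in KO columns (0.26, SE 0.21), with 0.56 within the shared slide but -0.15 on its other probe. Cyp7b1 (-0.20), Cyp8b1 (-0.10), Cyp27a1 (0.018) and the brain cholesterol hydroxylase Cyp46a1 (0.055) did not pass. Cyp7a1, the rate-limiting enzyme of bile acid synthesis, was not kept: it read 5.23, 5.34 and 5.12 in WT and 5.43, 6.20 and 5.77 in KO columns. All WT columns and KO 1 were at or under background, and KO 2 and KO 3 above it. Fitted without the filter it read 0.57 (SE 0.21, unadjusted p = 0.0259, limma adjusted p = 0.999), and its other probe, detected on 0 arrays, 0.050. It was picked out here after its values were seen. Cyp20a1, which falls in none of these groups, read -0.058.

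**Figure D3:**
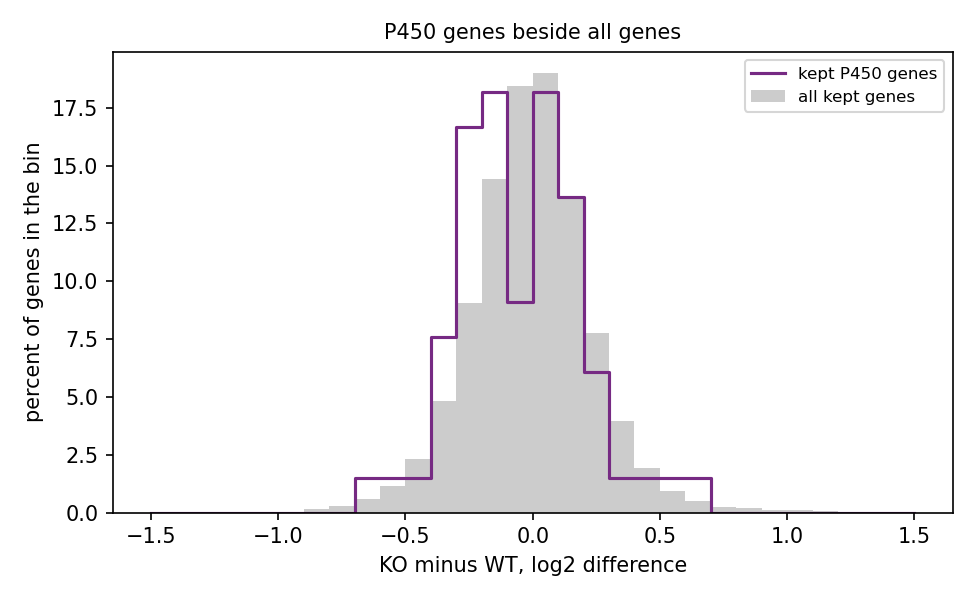
Share of genes (percent, vertical axis) by KO minus WT difference in bins of 0.1 log2 units, for the 66 kept P450 genes (line) and all 18636 kept genes (grey bars); 40 genes beyond 1.5 either way are not drawn. Both distributions centre near 0, with medians of -0.073 and -0.0076.

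Many P450 genes are neighbouring copies, and 46 of the 71 members were grouped by subfamily and chromosome after the values were seen. All 6 Cyp3a genes on chromosome 5, of which Cyp3a13 lies apart from the other 5, all 4 kept Cyp2d genes on chromosome 15 and all 5 genes of Cyp4a, Cyp4b and Cyp4x on chromosome 4 were below 0 over the 6 columns, with medians of -0.13, -0.18 and -0.22. Within the shared slide 2 of the Cyp3a genes (Cyp3a11 at 0.43 and Cyp3a16 at 0.24), 1 Cyp2d gene (Cyp2d22 at 0.19) and 0 of the Cyp4 genes were above 0. Under the titles on processed intensity 5 of 6, 3 of 4 and 4 of 5 were above 0, so under the titles most of these genes took the other sign. In the Cyp2a, Cyp2b, Cyp2f, Cyp2g and Cyp2s genes of chromosome 7, 6 of 9 kept members were above 0 (median 0.068, and 0.27 within the shared slide). These are descriptions without a test, since such copies are alike in sequence and can share transcripts.

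Several members varied more between columns of 1 genotype than between the genotypes. Column WT 1 held the lowest of the 6 values in 23 of 66 members (34.8%) and in 23.0% of all genes, and KO 1 in 14 (21.2%) and in 11.8% of all genes. Of the 26 named members, 4 (Cyp3a13, Cyp4a12, Cyp2d10 and Cyp2c38) stayed within 1.5 times their difference whichever column was left out. Cyp2u1, a fatty acid hydroxylase, read 6.999 in WT 1 and 7.94 to 8.51 in the other columns. Cyp2s1, an epithelial P450, read 8.05 in KO 2 and 9.27 in KO 3. The gap between these 2 knockout columns is wider than the difference between the genotypes in any kept member.

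**Figure D4:**
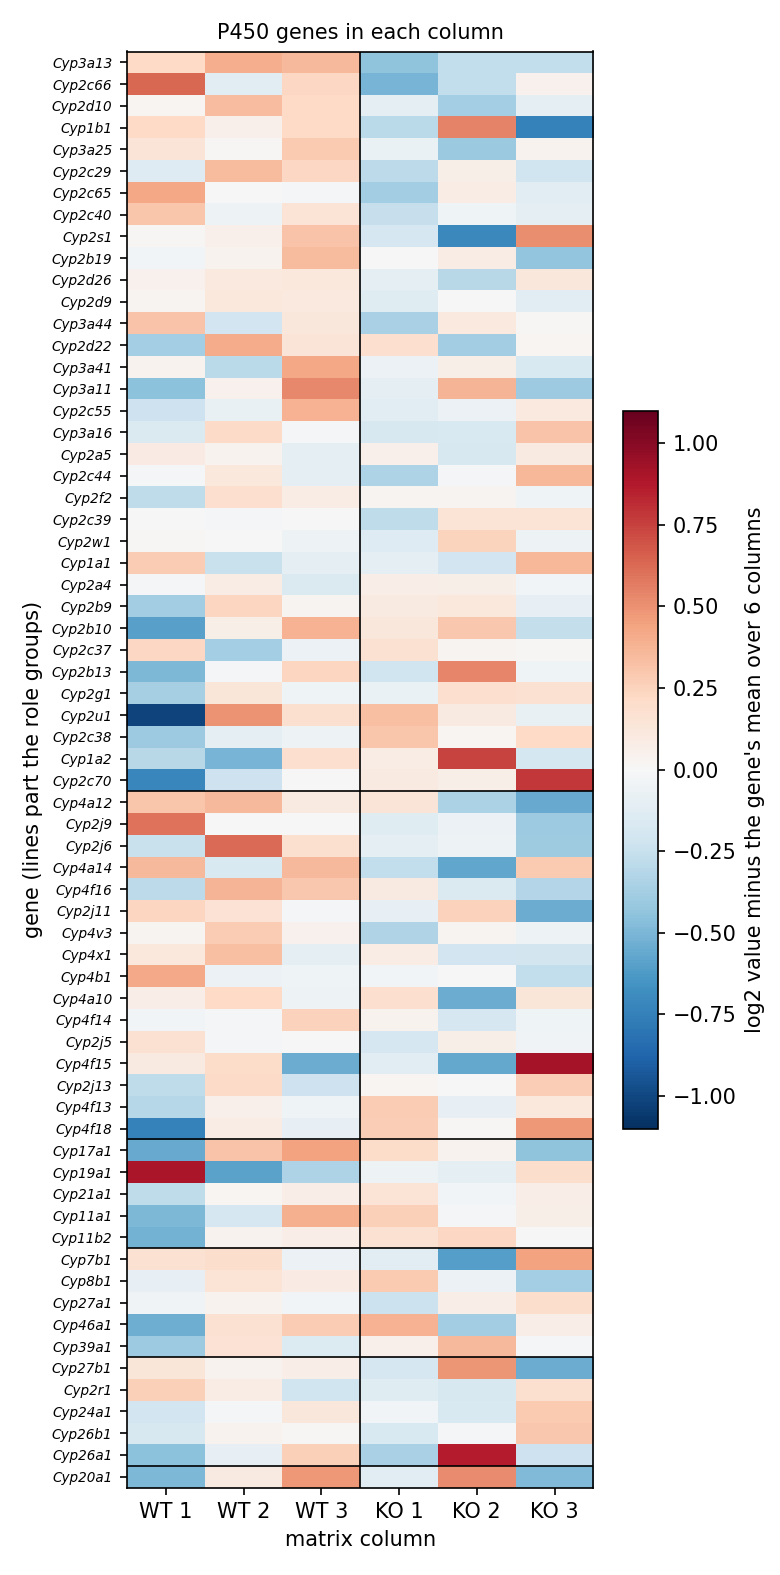
Deviation of each of the 66 kept P450 genes (rows, parted by role) from its own mean over the 6 matrix columns (log2 units, colour scale from -1.1 to 1.1). Cyp3a13 is high in all 3 WT and low in all 3 KO columns, while Cyp19a1, Cyp2u1 and Cyp26a1 stand out in 1 column each. Cyp4f15 is high in KO 3 and low in WT 3 and KO 2.

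Of the 71 members 29 had more than 1 probe, and in 12 of these the probes' differences took both signs. Across the 52 kept members with a promoter, the number of CpG and the difference had a Spearman's rho of 0.13, and 0.044 across 13869 kept genes, given as descriptions over genes measured on the same 6 arrays. The 8 kept members with at least 10 CpG had a median difference of -0.073, and the 44 with fewer -0.066.

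The genes that work with P450s were read from lists. Of 10 measured partners, which carry electrons to P450s or handle their heme, 0 passed and 3 were above 0 (median -0.16). Por, the reductase of microsomal P450s, read 0.055, and Cyb5r3, the cytochrome b5 reductase, -0.47. Of 20 transcription factors that control P450 genes 0 passed, with 0 higher and 1 lower at an unadjusted p of 0.05, and their median was -0.025. That gene was Nr1i3, the constitutive androstane receptor, which induces Cyp2b and Cyp3a genes in liver. It read 7.33, 7.21 and 7.25 in WT and 6.46, 6.59 and 6.30 in KO columns, so the groups lay apart (-0.81, SE 0.19, unadjusted p = 0.0011, limma adjusted p = 0.288). It was -0.88 within the shared slide and 0.55 under the titles. Of 10 other steroid synthesis genes 0 passed, with Hsd3b1, a 3β-hydroxysteroid dehydrogenase, at -0.44 (SE 0.19, unadjusted p = 0.0397; 0.20 under the titles). Of 11 other retinoid genes 0 passed, at either threshold. The P450 enzymes outside the naming rule, Cyp51 of cholesterol synthesis (-0.21), the thromboxane synthase Tbxas1 (0.44) and the prostacyclin synthase Ptgis (-0.062), did not pass.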

How the data were processed

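RNA of sorted mTECs was hybridised to 1-colour Agilent arrays, 6 in all. The scanner files hold intensity values per spot from Agilent Feature Extraction (10.7.3.1 per the file headers, 10.6 per the submitters' processing notes), with 43379 non-control spots of 41174 probes and 0 saturated; 73.5% to 81.3% of probes were well above background. The authors' deposited matrix holds log2 values per probe, whose columns share nearly the same quartiles (medians 7.13 to 7.14); the tool is not given in the sources used here, and without visible background subtraction folds of dim genes are understated. It also gives the authors' log2 differences, p-values and FDR.

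Of the matrix's probes 34908 had a symbol. Each gene was read on its brightest probe and kept where the scanner software called that probe above background on 3 or more of 6 arrays, which left 18636 genes. Columns were grouped by name and fitted with limma 3.58.1 (lmFit, then eBayes) under R 4.3.3, with Benjamini-Hochberg adjustment at 0.05; the fit was tested on simulated data. The precision is limited by 3 arrays per group, where an exact permutation test cannot reach 0.05. Named were Mbd1, the steroid, vitamin D and retinoic acid genes, Cyp1a2, Cyp2a5, and the 8 members of smallest p in each direction; other members appear with their values for completeness. Members and lists were chosen with earlier results of these data known. The scanner alternative with normexp used the median spot signal, the files having no mean signal column, and left out genes with an outlier spot; on processed intensity such spots were dropped from the fit. Same-numbered columns did not deviate together (correlations -0.32, -0.18 and -0.35), and the numbers were not used to pair samples. With 3 columns per group such correlations cannot show that the samples were unpaired. All 71 members matched RefSeq by gene ID.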

Additional observations from a re-analysis of the deposited data

How the results depend on the processing

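In every alternative that was fitted, 0 P450 genes passed (limma). The median difference moved to 0.20 under the scanner titles on processed intensity. Elsewhere it moved by less than 0.25, the median SD of a single member within a group, which is not a spread of the median itself. It took the other sign with the slide as a block (0.042) and under the titles after normexp and quantile normalization (0.040). Mbd1 read 1.60 (processed intensity) and 0.85 (normexp and quantile) under the titles, and -3.22 with the slide as a block (adjusted p = 0.0971), a fit over 5 columns. Over all genes 0 passed under either set of titles and with the slide block, and 9 to 32 with a column left out; the non-overlapping members then numbered 11 to 17. With the replicate number as a block 21 genes and 0 members passed. No call among the members changed, and whether the numbers pair the samples is not known.

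Under the titles on processed intensity these named genes, among other members, took the other sign: Cyp17a1 0.79, Cyp19a1 -0.45, Cyp1a2 -0.18, Cyp26a1 -0.10, Cyp27b1 0.25, Cyp2a5 0.084, Cyp2d10 0.29, Cyp2j6 0.48, Cyp2j9 0.21, Cyp3a13 0.18, Cyp3a25 0.57, Cyp4a12 0.56 and Cyp4a14 0.069. With normexp and quantile normalization they were Cyp17a1 0.51, Cyp19a1 -0.58, Cyp1a2 -0.29, Cyp24a1 -0.028, Cyp26a1 -0.15, Cyp26b1 -0.13, Cyp2a5 0.042, Cyp2c38 -0.043, Cyp2d10 0.17, Cyp2j6 0.28, Cyp2j9 0.038, Cyp39a1 -0.059, Cyp3a13 0.10, Cyp3a25 0.15, Cyp4a12 0.29 and Cyp4f13 -0.065. The titles regroup the matched libraries by construction. They also take in the array titled KO 2, which matched no column, in place of column KO 1. The scanner values were normalized otherwise than the matrix. With the slide as a block the named genes of other sign were Cyp17a1 (0.35), Cyp19a1 (-0.86) and Cyp2j6 (0.025). That fit leaves out KO 1 and gives the shared-slide difference again, with WT 1 as its single wild type value. As the mean over probes Cyp2a5 read 0.067. The cause of these changes was not tested.

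With a column left out in turn, the named genes that crossed 0 ran from -0.44 to 0.055 (Cyp17a1), -0.27 to 0.47 (Cyp19a1), -0.064 to 0.16 (Cyp24a1), -0.20 to 0.41 (Cyp26a1), -0.050 to 0.18 (Cyp26b1), -0.45 to 0.071 (Cyp27b1), -0.068 to 0.073 (Cyp2a5) and -0.22 to 0.021 (Cyp2r1). Further kept members crossed 0 too, such as Cyp2u1 (-0.22 to 0.54) and Cyp3a11 (-0.34 to 0.16). The count of non-overlapping members was not recomputed where a setting only rescaled values or changed the fit, nor with the slide block or after normexp and quantile normalization. Signal over background limits Cyp2c38, Cyp21a1, Cyp2j5 and Cyp8b1, which lay at background in at least 1 column. It also limits genes little above background, such as Cyp2c65 and Cyp27b1.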
